A study of Mus musculus with 6 samples.

Results

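Blood vessels of fat are lined by endothelial cells and wrapped by mural cells, which are the pericytes of capillaries and the smooth muscle cells of larger vessels. Endothelial cells carry junction proteins and receptor kinases through which vascular endothelial growth factors (VEGF) and angiopoietins act, and fat cells are a known source of such growth factors as a depot expands. A list of 47 genes of this system was examined in inguinal fat, a subcutaneous depot, of mice with high or low weight gain on the same diet. The list holds 23 genes of endothelium, 11 of mural cells and 13 of growth factors, their receptors and regulators, chosen by name. Of the 47 genes, 42 had a probe with 1 gene symbol and 37 had a value on all 6 arrays, out of 8596 genes with 1 symbol and values on all arrays. All mice were male C57BL/6J, an inbred strain without an introduced allele, and were given a diet rich in saturated fat at 8 weeks of age and kept on it for 4 weeks. High gainers were 8 mice with high weight gain and low gainers 8 mice with low gain, and the RNA of each group was combined into 1 pool and hybridized to 3 arrays.

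The 3 arrays of a pool repeat 1 RNA preparation, so that errors and p-values cover technical spread only, and how mice of a group vary cannot be seen. The values are signal intensities that the authors had quantile normalized across arrays, and they were compared on the log2 scale with limma over the 15821 probes with values on all arrays. A gene was called where its Benjamini-Hochberg adjusted p was under 0.01 and its fold change at least 1.5. Levels of different genes are not compared, because each probe has its own response. Of 13 adipocyte markers 8 were measured on all arrays, and the ratio of high to low gainers had a median of 0.09 on the log2 scale, against 0.03 over all tested probes. In contrast, 8 of 10 markers of B and T lymphocytes, 4 of 6 of epithelium and 7 of 8 of skeletal muscle were called lower in high gainers, against 3.99% of all tested probes. The adipocyte hormone Lep was called higher (log2 0.83), and of the muscle markers Tnnt3 and Pvalb had ratios of -1.16 and -0.95. In whole tissue, fewer cells of a type and less RNA per cell cannot be told apart.

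Of the 37 measured vascular genes, 2 were called higher in high gainers, Ramp2 and Pgf, and 2 lower, Icam1 and Ptn. These are 5.41% in each direction, against 2.50% of all tested probes called higher and 3.99% called lower (2.91% and 4.04% of the genes with 1 symbol). The ratio was above 0 for 32 of the 37 (86.5%), against 54.1% of all tested probes. For 24 genes (64.9%) all 3 arrays of high gainers lay above all 3 of low gainers, against 20.3% of all tested probes, and for 3 genes (8.11%) all lay below, against 16.3%. With limma p-values under 0.05 before adjustment there were 22 genes higher and 3 lower, against 17.4% and 13.6% of all tested probes. The test of the methods, with its unadjusted threshold and 1.5-fold, called 4 higher and 2 lower, against 3% (474 probes) and 4.29% of all 15821 tested probes. It was run here without the signal-to-noise and quality filters that the methods apply first. Among the 3 groups the median log2 ratio was 0.22 for the 16 endothelial genes, 0.48 for the 11 mural genes and 0.40 for the 10 growth factors, receptors and regulators. These medians describe genes that share the same arrays and were not tested against each other.

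**Figure D1:**
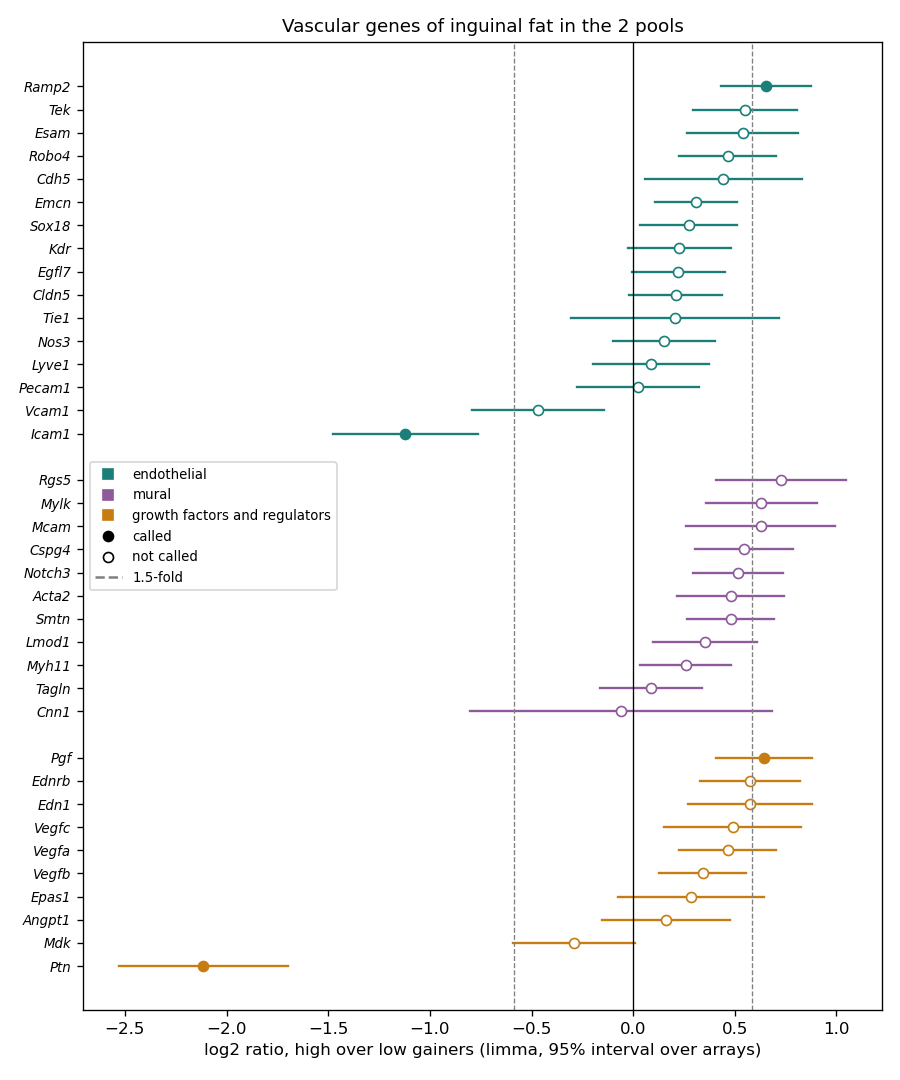
Log2 ratio of high over low gainers for the 37 genes measured on all arrays, with the 95% interval from limma over 3 arrays per pool; filled points were called, dashed lines mark 1.5-fold. The 4 filled points are Ramp2 and Pgf to the right and Icam1 and Ptn to the left, and 32 of 37 points lie to the right of 0.

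Ptn and the VEGF ligands had ratios of opposite sign, and promoter stretches of 3 of these genes are given to show the sequence next to which each transcript starts. The 250 bases before the RefSeq start are from GRCm38.p6 and read 5′ to 3′ in the direction of the gene. Capitals mark the core of the hypoxia response element, to which hypoxia-inducible factors bind, searched as ACGTG or GCGTG on both strands.
Vegfa (chr17:46032378-46032627, minus strand): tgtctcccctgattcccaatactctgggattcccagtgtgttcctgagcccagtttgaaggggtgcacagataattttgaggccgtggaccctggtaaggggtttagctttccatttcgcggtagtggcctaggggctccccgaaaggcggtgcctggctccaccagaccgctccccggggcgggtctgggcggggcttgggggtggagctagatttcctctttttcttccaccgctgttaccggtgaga
Vegfb (chr19:6987652-6987901, minus strand): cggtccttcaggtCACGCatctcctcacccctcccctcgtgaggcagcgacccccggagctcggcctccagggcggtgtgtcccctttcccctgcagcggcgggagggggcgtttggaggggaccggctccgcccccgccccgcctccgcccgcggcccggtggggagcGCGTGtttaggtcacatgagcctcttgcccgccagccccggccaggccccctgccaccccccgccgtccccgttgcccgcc
Ptn (chr6:36810180-36810429, minus strand): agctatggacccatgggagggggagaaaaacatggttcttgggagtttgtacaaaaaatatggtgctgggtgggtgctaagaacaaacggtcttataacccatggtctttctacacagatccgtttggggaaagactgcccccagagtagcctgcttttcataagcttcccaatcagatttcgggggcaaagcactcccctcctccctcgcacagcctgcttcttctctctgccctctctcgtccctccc
The Vegfb stretch held 2 cores, whereas the Ptn stretch held 0. Vegfa has 2 listed starts, and the stretch shown, before the first of them, held 0 cores while that before the second, which lies inside the gene and is not shown, held 2. A core occurred in 38.6% of the 32851 promoter stretches of the same length, and in 14 of 36 stretches (38.9%) of the 31 genes of the list with an entry. A match is a description of the letters and not a binding site.

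Ptn, which encodes the heparin-binding growth factor pleiotrophin, had the largest difference of the 37 genes. Its signal was 5539, 4780 and 5933 on the arrays of high gainers and 18507, 29276 and 23514 on those of low gainers. The lowest array of low gainers was still well above the highest of high gainers. The mean fell from 23766 ± 5389 (SD, n = 3 arrays) in low gainers to 5417 ± 586 (SD, n = 3) in high gainers, 4.33-fold lower (log2 -2.11 ± 0.18 SE, limma adjusted p = 0.000411). Leaving out any single array kept the call of Ptn (6 of 6 fits, log2 -2.28 to -1.95). Mdk, which encodes midkine, the only other member of the pleiotrophin family, had 11256, 10051 and 12986 in high gainers and 13977, 12611 and 15281 in low gainers. The pools overlapped, and Mdk was not called (log2 -0.29, 95% interval -0.59 to 0.01, adjusted p = 0.175).

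Alk, a receptor kinase reported to bind pleiotrophin, had a log2 ratio of -0.66 without a call (limma adjusted p = 0.0608). Of 8 measured genes for pleiotrophin receptors and endothelin-converting enzymes, none was called by limma. Before adjustment 3 were higher and 1 lower with limma p under 0.05, against 17.4% and 13.6% of all tested probes. None passed the test of the methods. Pleiotrophin is made by epithelial, stromal and nerve sheath cells among others, whose markers did not all go the same way. Of 6 measured epithelial markers 4 were called lower, against 3.99% of all tested probes. They were led by Krt18, a keratin of simple epithelia, with a log2 ratio of -2.65 and Cdh1, the epithelial cadherin, with -2.07. The claudins Cldn3 and Cldn4 overlapped between pools, with log2 ratios of 0.19 and -0.19. The summed signal of these 6 markers was 86908 to 124157 on high-gainer arrays and 132626 to 162758 on low-gainer arrays. Most of that sum was Cldn4, with 75092, 64343 and 93118 in high gainers and 72020, 91018 and 102821 in low gainers. Of the defining markers, Epcam had a value on 1 of 3 high-gainer arrays and on all low-gainer arrays. Of 7 measured stromal markers 6 had ratios above 0, against 54.1% of all tested probes. The 1 measured Schwann cell marker, Mbp, had higher values on every array of high gainers (log2 0.77) without a call (limma adjusted p = 0.0717). The part of these cells in the Ptn difference was not tested.

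**Figure D2:**
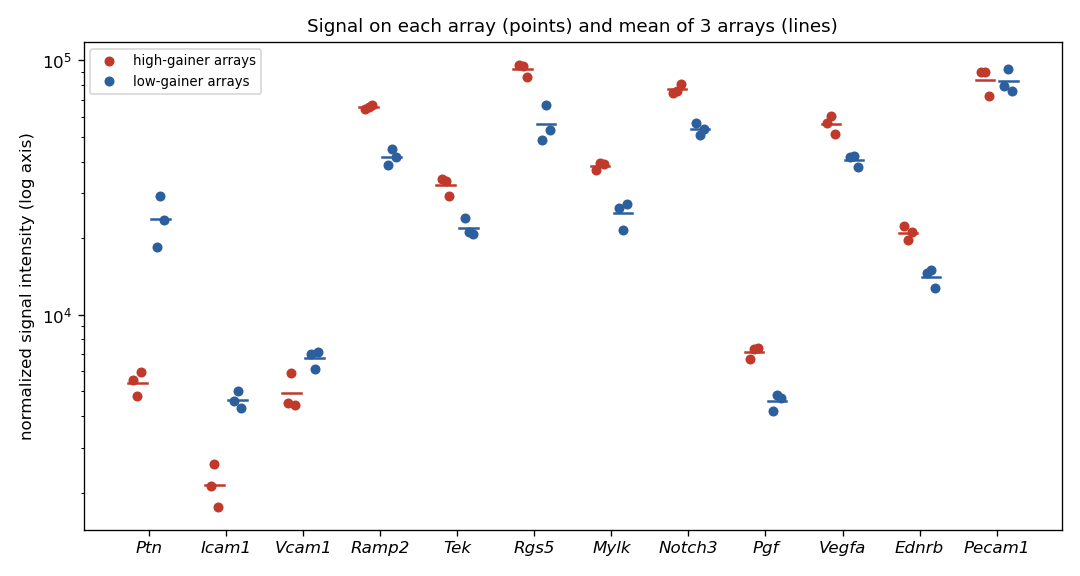
Normalized signal intensity (log axis) of 12 genes, with red points for arrays of high and blue for arrays of low gainers, with short lines for the means of 3 arrays. Ptn, Icam1 and Vcam1 are higher in low gainers, Pecam1 overlaps and the other 8 genes are higher in high gainers.

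The 4 VEGF ligands of the list had higher values on every array of high gainers than on any of low gainers. So did Vegfd, a further ligand outside the list, and the same held for 20.3% of all tested probes. Of these ligands Pgf was called. Pgf encodes placental growth factor, a ligand of the receptor Flt1. It had 6709, 7307 and 7437 in high gainers and 4205, 4839 and 4703 in low gainers, so that no arrays overlapped. The difference was 1.56-fold (log2 0.64 ± 0.10 SE, limma adjusted p = 0.00577). Its probe is dim, which here means in the lowest 33.3% of signals. With Pgf, 9 of the 37 genes have dim probes, the others being Vegfc, Angpt1, Edn1, Cdh5, Tie1, Vcam1, Icam1 and Cnn1. Leaving out any single array lost the call of Pgf. The adjusted p was 0.0212, 0.0254 and 0.0210 without high gainers replicates 1, 2 and 3 and 0.0143, 0.0157 and 0.0238 without low gainers replicates 1, 2 and 3.

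Vegfa, the main growth signal for vessels, was measured by 2 probes. The brighter had 56799, 60233 and 51506 in high gainers and 41637, 42036 and 38212 in low gainers, a ratio of 1.38 that was not called (log2 0.47, limma adjusted p = 0.0213). The dimmer probe had 9175, 9036 and 11507 against 6239, 6040 and 5492, with a log2 ratio of 0.73 (adjusted p = 0.00796), which passed both thresholds. Both probes had ratios above 0 but lay on different sides of the fold threshold, and their mean was called (log2 0.60, adjusted p = 0.00538). Vegfb, which acts in fat and muscle vessels, had a log2 ratio of 0.34 (adjusted p = 0.0441) and Vegfc, the ligand for lymphatic growth, one of 0.49 (adjusted p = 0.0589), neither called. Vegfd, a related ligand for lymphatic growth, had 18417, 17454 and 24825 in high gainers and 14141, 14087 and 16014 in low gainers and was not called either (log2 0.44, adjusted p = 0.0907).

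Of the angiopoietins, Angpt1, which steadies vessels through the receptor Tek, had 6313, 7487 and 5349 in high gainers and 5562, 5506 and 5922 in low gainers. These values overlapped (log2 0.16, 95% interval -0.16 to 0.48, limma adjusted p = 0.474). Its antagonist Angpt2 had 4514, 5548 and 3863 in high gainers and 3073 and 2730 on 2 arrays of low gainers, with no value on the other. When probes with values on at least 2 arrays of each pool were fitted, the log2 ratio of Angpt2 was 0.66 (± 0.18 SE, adjusted p = 0.0614), not called.

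The endothelin pair had nearly equal ratios just under the fold threshold, where a ratio of 1.5 is 0.58 on the log2 scale to 2 decimals. Edn1, the vasoconstrictor peptide endothelin, was measured by a dim probe and had 5920, 6341 and 7222 in high gainers and 4266, 4978 and 3860 in low gainers. Ednrb, one of its receptors, had 22269, 19701 and 21111 against 14559, 15024 and 12793. No arrays overlapped for either gene, and both had a ratio of 1.49 (limma adjusted p = 0.0242 for Edn1 and 0.0108 for Ednrb). Neither was called. Ece1, which cleaves the endothelin precursor, had a log2 ratio of 0.38 (adjusted p = 0.0253).

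Epas1, the hypoxia-inducible factor of endothelium and fat, had a log2 ratio of 0.28 and pools that overlapped (95% interval -0.07 to 0.64, limma adjusted p = 0.261). Of 13 measured genes of the hypoxia-inducible factor pathway, 3 were called higher and none lower, against 2.50% and 3.99% of all tested probes, with a list median of 0.17. Those called were Ddit4, a stress-induced inhibitor of mTOR, with a log2 ratio of 0.98, Ndrg1 with 0.65 and Vldlr, a lipoprotein receptor, with 0.63. Neither of the glycolytic genes Ldha and Pgk1 was called. Ldha had a log2 ratio of 0.20 (adjusted p = 0.226) and Pgk1 one of -0.31 (adjusted p = 0.130). In 6 genes of this list (46.2%) all high-gainer arrays lay above the low-gainer arrays, against 20.3% of all tested probes. In 2 (15.4%), Pgk1 and Pdk1, all lay below, against 16.3%. Pdk1 had a log2 ratio of -0.32 and was not called (limma adjusted p = 0.0669). Slc2a1, Egln3, Car9 and Hif3a did not have values on all arrays and were not tested.

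Among endothelial genes, Ramp2 was called higher and Icam1 lower, against 2.50% and 3.99% of all tested probes. The ratio was above 0 for 14 of 16, against 54.1% of all tested probes. Ramp2 is the partner protein through which the calcitonin receptor-like receptor of endothelium binds adrenomedullin. It had 64111, 65474 and 66967 in high gainers and 38821, 44713 and 41691 in low gainers, with no overlap. The means were 65517 ± 1429 (SD, n = 3 arrays) and 41742 ± 2946 (SD, n = 3), or 1.57-fold (log2 0.65 ± 0.10 SE, limma adjusted p = 0.00417). Ramp2 kept its call without low gainers replicate 2 (adjusted p = 0.00994). It lost it without high gainers replicates 1, 2 and 3 (0.0229, 0.0190 and 0.0160) and without low gainers replicates 1 and 3 (0.0112 and 0.0217).

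The genes of vessel identity and junctions lay between 0.02 and 0.65 on the log2 scale, with 10 of 10 ratios above 0, against 54.1% of all tested probes, and 7 with every high-gainer array above the low-gainer arrays, against 20.3%. This subgroup leaves out Icam1 and Vcam1, the 2 endothelial genes with ratios below 0, so its shared sign depends in part on the grouping. Esam, an adhesion molecule of endothelial junctions, had 84536, 96181 and 80736 in high gainers and 65011, 61576 and 53578 in low gainers, which is a ratio of 1.45 (limma adjusted p = 0.0213). Robo4, an endothelial receptor that guards the vessel barrier, had a log2 ratio of 0.46 (adjusted p = 0.0224), and Cdh5, the cadherin of these junctions, one of 0.44 (adjusted p = 0.116). At the low end was Pecam1, the adhesion molecule by which endothelium is commonly recognized. It had 89941, 89614 and 72573 in high gainers and 79622, 92329 and 75826 in low gainers, and the pools overlapped (log2 0.02, 95% interval -0.28 to 0.32, adjusted p = 0.926). Emcn, Sox18, Egfl7, Cldn5 and Nos3 lay between 0.15 and 0.31. Nos3, the nitric oxide synthase of endothelium, was the lowest of these 5.

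Of the receptor kinases, Tek had 34079, 33458 and 29204 in high gainers and 24045, 21207 and 20769 in low gainers. The arrays did not overlap, and the ratio stayed under the fold threshold (log2 0.55 ± 0.11 SE, limma adjusted p = 0.0148). Kdr, the main VEGF receptor, had a log2 ratio of 0.23 (adjusted p = 0.205), and Tie1 one of 0.21 (adjusted p = 0.576) with overlapping arrays. Flt4, the receptor of lymphatic endothelium, had a value on 1 array of each pool, and Vwf, a clotting protein of endothelium, on 2 arrays of high gainers and on none of low gainers, so neither could be tested. Lyve1, a hyaluronan receptor of lymphatic vessels and macrophages, overlapped (log2 0.09, adjusted p = 0.681).

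The adhesion molecules that let leukocytes leave the blood had ratios below 0. Icam1 had 2118, 2585 and 1750 in high gainers and 4563, 5000 and 4316 in low gainers, with no overlap. High gainers had 2.17-fold less (log2 -1.12 ± 0.15 SE, limma adjusted p = 0.00304). The probe is dim. The call held without high gainers replicates 2 and 3. It was lost without high gainers replicate 1 (adjusted p = 0.0174) and without low gainers replicates 1, 2 and 3 (0.0131, 0.0149 and 0.0102), and also when a constant offset was added before the log2 step, which took the ratio to -0.58. Vcam1, a second such molecule, had 4483, 5882 and 4421 in high gainers and 7028, 6140 and 7156 in low gainers, a log2 ratio of -0.47 that was not called (adjusted p = 0.0601). The probe of Vcam1 is dim as well. Sele had a probe with no value on any array.

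Both adhesion molecules are also made by cells of lymphoid tissue, and lymphocyte markers were lower in the same pool. All 10 measured markers of B and T lymphocytes had lower values on every array of high gainers, against 16.3% of all tested probes. Their median log2 ratio was -1.73. Ms4a1, a B cell surface protein, and Cd3g, a chain of the T cell receptor complex, had log2 ratios of -1.92 and -1.85. The summed signal of the 10 markers was 211548 to 221413 on high-gainer arrays and 685449 to 766712 on low-gainer arrays. Of 4 measured genes of lymphatic endothelium and high endothelial venules, the vessels by which lymphocytes enter lymph nodes, 3 were called lower, against 3.99% of all tested probes. Glycam1, a ligand for lymphocyte homing, had 20225, 26424 and 21870 in high gainers and 72661, 63052 and 64173 in low gainers (log2 -1.55), and Ccl21a, a chemokine of lymph nodes, had a log2 ratio of -1.44. Stab2, a scavenger receptor of sinus endothelium, also fell, and Pdpn, a lymphatic marker also made by stromal cells, had a log2 ratio of 0.38 (adjusted p = 0.0457). The part of lymphoid tissue in the Icam1 and Vcam1 values was not tested.

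**Figure D3:**
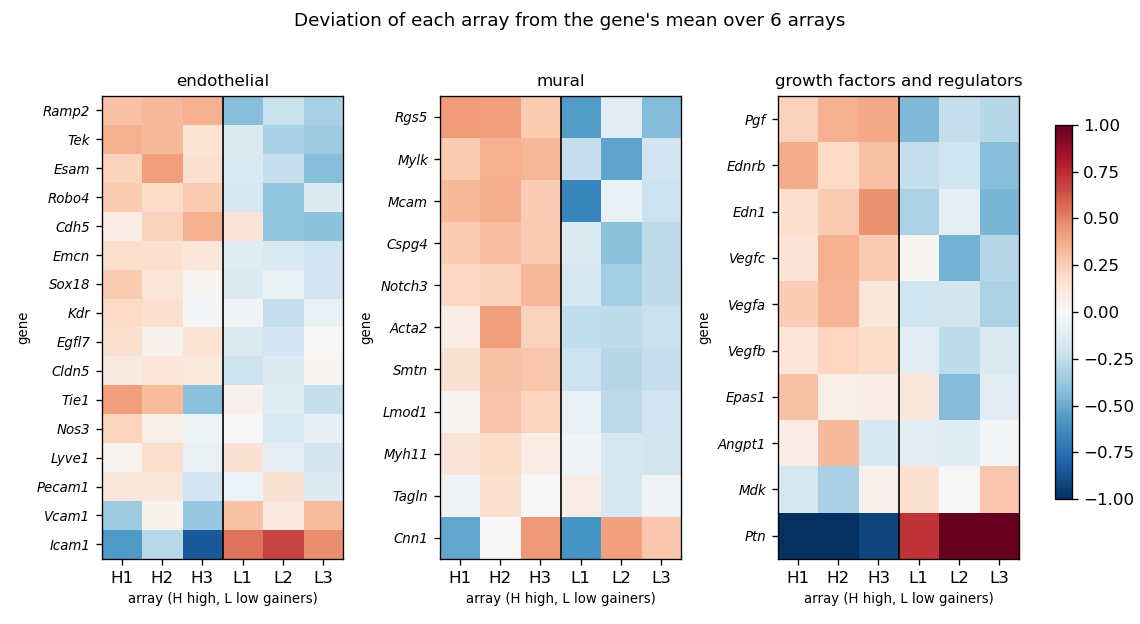
Deviation of each array from the mean of a gene over the 6 arrays (log2, colors end at -1 and 1) for endothelial, mural and growth factor genes, with H1 to H3 for high and L1 to L3 for low gainers. The median deviation of the 11 mural genes was 0.15 to 0.29 on high-gainer arrays and -0.25 to -0.20 on low-gainer arrays, and Ptn and Icam1 at the foot of their panels run the other way.

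Of the 11 mural genes, none was called by limma in either direction. Before adjustment, however, 9 were higher and none lower with limma p under 0.05, against 17.4% and 13.6% of all tested probes. The same 9 had all high-gainer arrays above all low-gainer arrays (81.8%, against 20.3% of all tested probes). The test of the methods called 2 higher before adjustment, Rgs5 and Mylk, and none after it. The 4 pericyte genes lay between 0.51 and 0.73 on the log2 scale. Rgs5, a regulator of G protein signaling in pericytes, had 96279, 95007 and 85710 in high gainers and 48681, 66768 and 53141 in low gainers. Its ratio of 1.66 passed the fold threshold while the adjusted p did not (log2 0.73 ± 0.14 SE, limma adjusted p = 0.0117). Without low gainers replicate 2 it was called (log2 0.86, adjusted p = 0.00693). Mcam, an adhesion molecule of pericytes and endothelium, had a ratio of 1.54 (adjusted p = 0.0343), and Cspg4, a pericyte proteoglycan, one of 1.46 (adjusted p = 0.0122). Notch3, the receptor that maintains vascular smooth muscle, had a ratio of 1.43 (adjusted p = 0.0111).

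Contractile genes lay between -0.06 and 0.63. Mylk, the kinase that activates smooth muscle myosin, had 37078, 39544 and 39065 in high gainers and 26378, 21529 and 27200 in low gainers, a ratio of 1.55 without overlap (log2 0.63 ± 0.12 SE, limma adjusted p = 0.0110). Acta2, the smooth muscle actin, and Smtn, an actin-binding protein, both had a log2 ratio of 0.48 (adjusted p = 0.0275 and 0.0125). Lmod1, which nucleates actin filaments, and Myh11, the smooth muscle myosin, had 0.35 and 0.26. Tagln, an abundant actin-binding protein, had 59896, 68294 and 61576 in high gainers and 64343, 54615 and 59689 in low gainers, which overlapped (log2 0.09, 95% interval -0.16 to 0.34). Cnn1, a calponin measured by a dim probe, had 1396, 2008 and 2706 against 1336, 2664 and 2416, a spread within each pool that was wider than the difference (log2 -0.06, 95% interval -0.80 to 0.68). Rgs5 and Mylk were called when the dim probes were removed before the fit (adjusted p = 0.00348 and 0.00331). With an intensity trend and robust estimation Rgs5, Mylk and Mcam were called (adjusted p = 0.00126, 0.00194 and 0.00720).

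Of 16 further mural genes measured, 1 was called higher and 1 lower, against 2.50% and 3.99% of all tested probes, with a median log2 ratio of 0.08. The ratio was above 0 for 8 of the 16 (50%), against 54.1% of all tested probes. In 7 (43.75%) all high-gainer arrays lay above the low-gainer arrays, against 20.3% of all tested probes. In 5 (31.25%), Des, Tpm1, Tpm2, Srf and Cnn2, all lay below, against 16.3%. All 8 measured skeletal muscle markers also had lower values on every array of high gainers, with a median log2 ratio of -0.86. The part of skeletal muscle in the values of these mural genes was not tested. Synpo2, an actin-binding protein of smooth and striated muscle, had a log2 ratio of 0.88, and Cnn2, a calponin found in many cell types, one of -0.72. Pdgfrb, the receptor by which pericytes are recruited, had a log2 ratio of 0.86 with a dim probe and was not called (limma adjusted p = 0.0454). It was chosen after its values were seen. Of the same list Abcc9, Kcnj8, Higd1b, Anpep and Des had log2 ratios of 0.59, 0.26, 0.24, -0.004 and -0.14, none called. Stromal cells share some of these genes. Of 7 measured stromal progenitor markers 2 were called higher in the same pool, against 2.50% of all tested probes. These were Dpt and Pi16, with log2 ratios of 1.18 and 0.99. The summed signal of those 7 markers overlapped between pools, at 3544818 to 4130916 and 3099037 to 3716174. Most of that sum was Dcn and Col3a1, which overlapped between pools, as did Col1a1. The other 4 markers (57.1%), Pdgfra, Lum, Dpt and Pi16, had higher values on every array of high gainers, against 20.3% of all tested probes. Acta2 is also made by basal cells of glandular epithelium. Of 5 listed markers of these basal cells only 1, Krt14, was measured on all arrays, with a log2 ratio of -0.95 (limma adjusted p = 0.0149). Krt5 had 856 on the only high-gainer array with a value and 9689, 4689 and 6281 in low gainers. Krt17 overlapped between pools where it had values, and Trp63 had a value on a high-gainer array only. The part of stromal and basal cells in the mural values was not tested.

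Of 23 further endothelial genes measured, 2 were called higher and none lower, against 2.50% and 3.99% of all tested probes, with a median log2 ratio of 0.39. In 13 all high-gainer arrays lay above the low-gainer arrays, against 20.3% of all tested probes, and in 2 all lay below, against 16.3%. Those 2 were the transcription regulators Lmo2 and Fli1, with log2 ratios of -0.35 and -0.28, neither called. Sox7, a transcription factor of early endothelium related to Sox18, had 42268, 48816 and 43734 in high gainers and 29111, 29943 and 28755 in low gainers, a log2 ratio of 0.62 (limma adjusted p = 0.00569). Thbd, thrombomodulin, which keeps the vessel wall free of clots, had a log2 ratio of 0.61 (adjusted p = 0.00849). Against these, Plvap, a protein of capillary pores, had a log2 ratio of 0.05 (adjusted p = 0.789). Plvap was chosen after its values were seen.

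**Figure D4:**
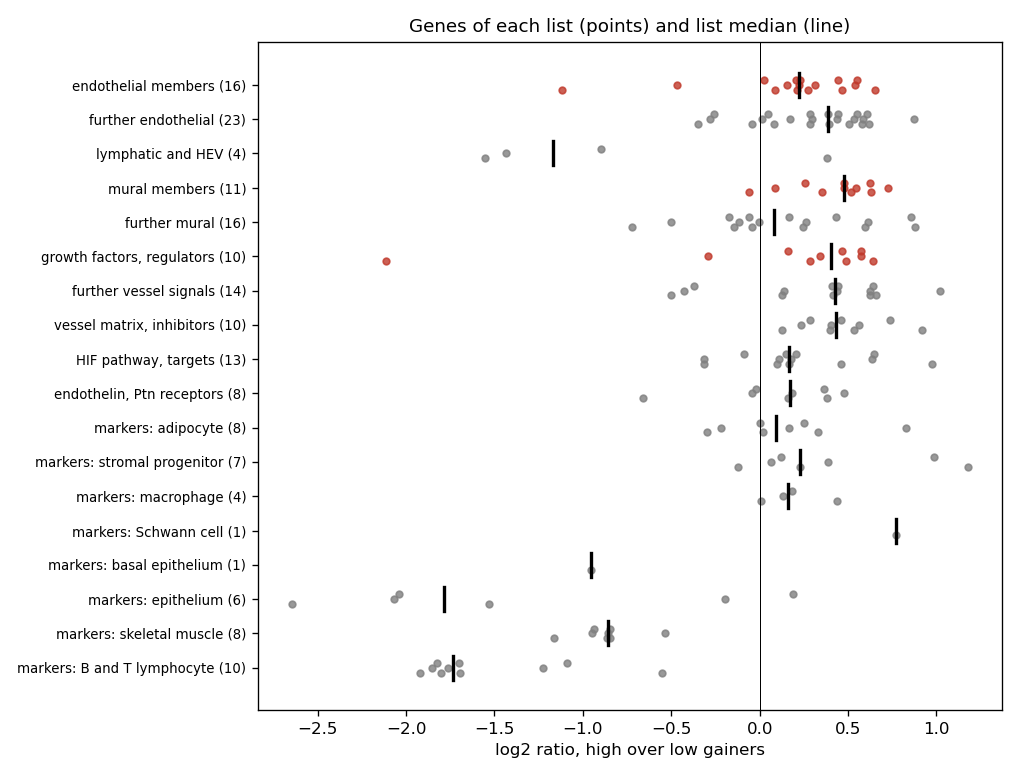
Log2 ratios of high over low gainers for the genes of each list (points, number measured in brackets) with the list median (line), red for the vascular genes and grey for further vascular lists and markers of other cells. The mural median lies at 0.48, the adipocyte markers at 0.09 and the B and T lymphocyte markers at -1.73.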

How the data were processed

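Expression was measured in inguinal fat on chemiluminescent arrays of the mouse genome read in 1 color, with 1 RNA pool of 8 mice per group and 3 technical arrays per pool. The deposited intensities are linear, and the authors had applied quantile normalization. A cell is blank where an array has no value, and such probes were treated as not measured. Each array had a value for between 18018 and 20605 of 33012 probes, and precision is limited by the number of arrays. Within a pool the arrays correlated at r = 0.988 to 0.994 and between pools at 0.972 to 0.980.

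Intensities of the 15821 complete probes were log2 transformed without further normalization and fitted with limma (version 3.58.1, R 4.3.3, lmFit with eBayes), with p-values adjusted over all probes. The procedure was tested on simulated data. Genes were named from probes with 1 symbol (14411 probes), and the brightest complete probe represented a gene. Called genes and, in each group, the uncalled genes with the 2 highest and 2 lowest ratios are given in full, and of each further list the 2 most changed called genes in each direction. Other named genes were chosen after their values were seen. The gene lists were chosen with earlier results of these data known. No genome build for the probes was found in the labels or methods, so no probe coordinates are printed, and promoters come from RefSeq (GRCm38.p6). Alternatives covered normalization, centering, dim probes, an offset, the variance model, thresholds, blank cells, the probe chosen, a replicate block, the ANOVA of the methods and leaving out each array. Deviations of equally numbered arrays correlated at r = 0.04, -0.11 and 0.27. Whether the numbers pair the arrays was not settled by these values, and the replicate block was run only as an alternative. Flt1, Icam2, Selp, Hif1a and Ednra had no named probe and Sele and Prox1 no value, and they were not analysed here.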

Additional observations from a re-analysis of the deposited data

How the results depend on the processing

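The count of vascular genes called higher (2) became 0 on arrays centered on the median change of adipocyte markers, at a 2-fold threshold, with the replicate block and with the adjusted ANOVA. It became 5 with an intensity trend and 4 with the unadjusted ANOVA, and lay between 0 and 2 with 1 array left out. The count called lower (2) became 1 without dim probes or with an offset of 2848 and 0 with the adjusted ANOVA, and lay between 1 and 2 with 1 array left out. The endothelial gene called higher (Ramp2) was lost, giving 0, with the centering on adipocyte markers, the 2-fold threshold, the replicate block and the adjusted ANOVA, and the one called lower (Icam1) was lost, giving 0, without dim probes, with the offset and with the adjusted ANOVA. With 1 array left out both counts lay between 0 and 1. Mural genes called higher (0) became 2 without dim probes, with the offset and with the unadjusted ANOVA, 3 with the intensity trend and 0 to 1 with 1 array left out. Of the growth factors and regulators, the 1 called higher (Pgf) gave 0 with the centering on adipocyte markers, without dim probes, with the offset, at 2-fold, with the replicate block, with the adjusted ANOVA and in all 6 fits with 1 array left out, and 2 with the probes of a gene averaged. The 1 called lower (Ptn) gave 0 with the adjusted ANOVA. Icam1 and Pgf have dim probes, so they were absent from the fit without dim probes, which could not test their calls. Repeating the quantile step, centering arrays on their overall median and dropping the fold threshold changed no call. The replicate block changed no call other than those of Ramp2 and Pgf.

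The endothelial median of 0.22 became 0.13 on arrays centered on adipocyte markers and 0.25 without dim probes, and lay between 0.20 and 0.31 with 1 array left out. The mural median of 0.48 became 0.39 with the same centering and 0.39 with the offset, and the median of growth factors and regulators of 0.40 became 0.31 with the centering and 0.31 without dim probes. The medians without dim probes leave out 4 endothelial genes and 4 growth factors and regulators. Uncalled ratios near 0 changed sign, with the centering for Pecam1 (-0.0695), Lyve1 (-0.0054) and Tagln (-0.0047) and with 1 array left out for Pecam1 (-0.0359 to 0.1255) and Cnn1 (-0.37 to 0.19). The cause of these differences was not tested, apart from the fewer arrays or probes in some fits.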

Other observations

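Genes for signals and matrix of vessels outside the list lay in the same direction for the most part. Of 14 measured genes for VEGF, Notch, ephrin, apelin and platelet-derived growth factor signals, 2 were called higher in high gainers and none lower, against 2.50% and 3.99% of all tested probes, with a median log2 ratio of 0.42. The ratio was above 0 for 11 of the 14 (78.6%), against 54.1% of all tested probes. In 9 (64.3%) all high-gainer arrays lay above the low-gainer arrays, against 20.3%, and in 3 (21.4%) all lay below, against 16.3%. Fgf1, a fibroblast growth factor of expanding fat, had 18131, 21259 and 16156 in high gainers and 10673, 8397 and 8374 in low gainers, a log2 ratio of 1.02 (± 0.15 SE, limma adjusted p = 0.00394). Jag2, a Notch ligand, had one of 0.63 (adjusted p = 0.00678). The 3 genes below were Cxcl12, a chemokine of stromal and lymphoid tissue, Tgfb1 and Angptl4. Their log2 ratios were -0.50 (limma adjusted p = 0.0192), -0.43 and -0.37, and none was called.

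Of 10 measured genes for vessel matrix and inhibitors of vessel growth, 2 were called higher and none lower, against the same shares, with all 10 ratios above 0 (54.1% of all tested probes) and a median of 0.43. Col18a1, the source of the inhibitor endostatin, had a log2 ratio of 0.92 and Thbs2, a matrix inhibitor of vessel growth, one of 0.74. Col4a1, the collagen of the basement membrane, had a log2 ratio of 0.56 and was not called (adjusted p = 0.0147). These lists share arrays with the other comparisons.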
